A study of Mus musculus with 17 samples.

Results

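A total of 2226 regions of the mouse genome carried an H3.3 island in both lens fiber libraries, carried none in either lens epithelium library, and lay outside every protein-coding gene. They were found by merging the islands of the 4 libraries wherever they shared 1 bp or more. Of 38396 such merged regions, 38295 lay on chromosomes 1 to 19. Of those on the autosomes, 11061 (28.9%) had an island in both fiber replicates and in neither epithelium replicate, and 2226 of these (20.1%) overlapped no protein-coding gene body of the GENCODE annotation of GRCm38, whereas 8835 did. Among the 8834 merged regions outside protein-coding genes, the 2226 fiber-only regions made up 25.2%. The presence and absence of islands therefore chose these regions, and the contrast between fibers and epithelium is their definition rather than a finding.

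Chromatin came from lenses of newborn CD-1 mice, microdissected into epithelium, the proliferating cell layer at the front of the lens, and fibers, the elongated cells that make up its mass. It was precipitated with the same antibody against H3.3, with 2 biological replicates per compartment. The sample titles give postnatal day 1, while the protocol gives P0.5 and 150 lenses for each sample, and the Methods give 200 lenses. Both compartments had the same strain and no treatment, and they differed in cell type, position in the lens and dissection. Bisulfite libraries of the series and its pooled input were not analysed here.

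H3.3 is a variant of histone H3 that can be placed in chromatin outside of DNA replication. The HIRA complex brings it to transcribed genes, promoters and enhancers, and ATRX with DAXX brings it to telomeres, heterochromatin and repeated sequence. Sequence outside protein-coding genes holds distant enhancers, genes for long non-coding RNAs, microRNAs and tRNAs, and most of the repeats of the genome.

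The sequences under some of these regions are shown first, because they are the annotated non-coding genes and the dense site to which the values below refer. Of 23 microRNA genes that overlapped a fiber-only region outside genes, 14 had mature sequences in the RefSeq table of GRCm38.p6. Those of the best known genes among them are printed 5′ to 3′ with the seed, bases 2 to 8, in capitals. The microRNAs miR-17-5p and miR-20a-5p share 1 seed, and miR-19a-3p and miR-19b-3p share another.
miR-17-5p: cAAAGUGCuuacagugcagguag
miR-20a-5p: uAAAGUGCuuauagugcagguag
miR-18a-5p: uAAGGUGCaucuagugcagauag
miR-19a-3p: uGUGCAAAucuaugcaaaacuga
miR-19b-3p: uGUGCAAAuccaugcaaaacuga
miR-92a-3p: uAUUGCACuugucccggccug
miR-135a-5p: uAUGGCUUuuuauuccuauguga
miR-1251-5p: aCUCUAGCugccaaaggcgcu
miR-31-5p: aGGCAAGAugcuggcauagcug
miR-148a-3p: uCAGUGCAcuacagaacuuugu
miR-1897-3p: uCAACUCGuucuguccggugag

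Within the miR-17 cluster, the stretch from Mir20a to Mir19b-1, chr14:115044183-115044380 on the plus strand, is given with its mature microRNAs in capitals. The next window reaches from 250 bases before to 50 bases after the start of Gm20757, chr10:92375324-92375623, on the minus strand and with CpG in capitals. The last sequence is the whole of the densest region, chr1:102628201-102628400, on the plus strand.
Mir20a to Mir19b-1: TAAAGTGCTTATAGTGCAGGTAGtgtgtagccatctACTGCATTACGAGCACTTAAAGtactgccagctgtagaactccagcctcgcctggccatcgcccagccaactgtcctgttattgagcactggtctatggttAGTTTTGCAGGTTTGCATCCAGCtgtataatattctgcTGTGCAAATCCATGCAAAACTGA
Gm20757 start: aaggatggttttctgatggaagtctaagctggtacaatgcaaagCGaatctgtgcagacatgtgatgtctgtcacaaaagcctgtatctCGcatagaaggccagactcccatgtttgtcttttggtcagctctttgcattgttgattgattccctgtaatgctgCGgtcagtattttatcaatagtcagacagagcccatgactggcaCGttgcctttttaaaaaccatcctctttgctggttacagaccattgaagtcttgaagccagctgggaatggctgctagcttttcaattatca
Densest region: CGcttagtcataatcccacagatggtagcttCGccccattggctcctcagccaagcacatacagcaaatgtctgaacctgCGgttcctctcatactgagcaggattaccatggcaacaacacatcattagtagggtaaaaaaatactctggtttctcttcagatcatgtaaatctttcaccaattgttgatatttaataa

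The window of Gm20757 is from RefSeq (GRCm38.p6), and the other sequences of this group were read from GRCm38. The start window of Gm20757 held 4 CpG. At least 10 CpG were present in 34 of the 220 RefSeq start windows of this length that lay in a fiber-only region outside genes (15.5%), beside 13800 of all 31396 windows on chromosomes 1 to 19 (44.0%). The 220 windows cannot hold the start of a GENCODE protein-coding gene by the choice of the regions, whereas the full set includes such starts.

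The fiber-only regions outside genes were of moderate length, and their density was close to that of all islands of the libraries. Their median length was 5000 bp, with quartiles of 4000 and 6600 bp and a range from 200 to 63200 bp, and together they covered 12.7 Mb. Their density, the authors' read count in islands divided by island length, had a median of 27.8 reads per kb in fiber replicate 1, with quartiles of 25.1 and 30.7. In fiber replicate 2 the median was 28.5 reads per kb, with quartiles of 25.7 and 31.9. The lowest densities were 17.2 reads per kb in replicate 1 and 16.8 in replicate 2, and the highest were 325 and 290. In 2157 of the 2226 regions (96.9%), the densities of the 2 replicates lay within 1.5 times of each other, without any scaling for depth. Every region had to be called in both libraries, and density counts called islands only. All islands had medians of 27.4 reads per kb in fiber replicate 1 and 27.5 in replicate 2. The share of 96.9% therefore does not measure how well the replicates agree, and it was not set beside other regions. Islands in these regions held 294111 reads in fiber replicate 1 and 280694 in replicate 2, which was 5.83% and 5.24% of the reads in all islands of the library. A single island per replicate made up 2091 of the regions.

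**Figure D1:**
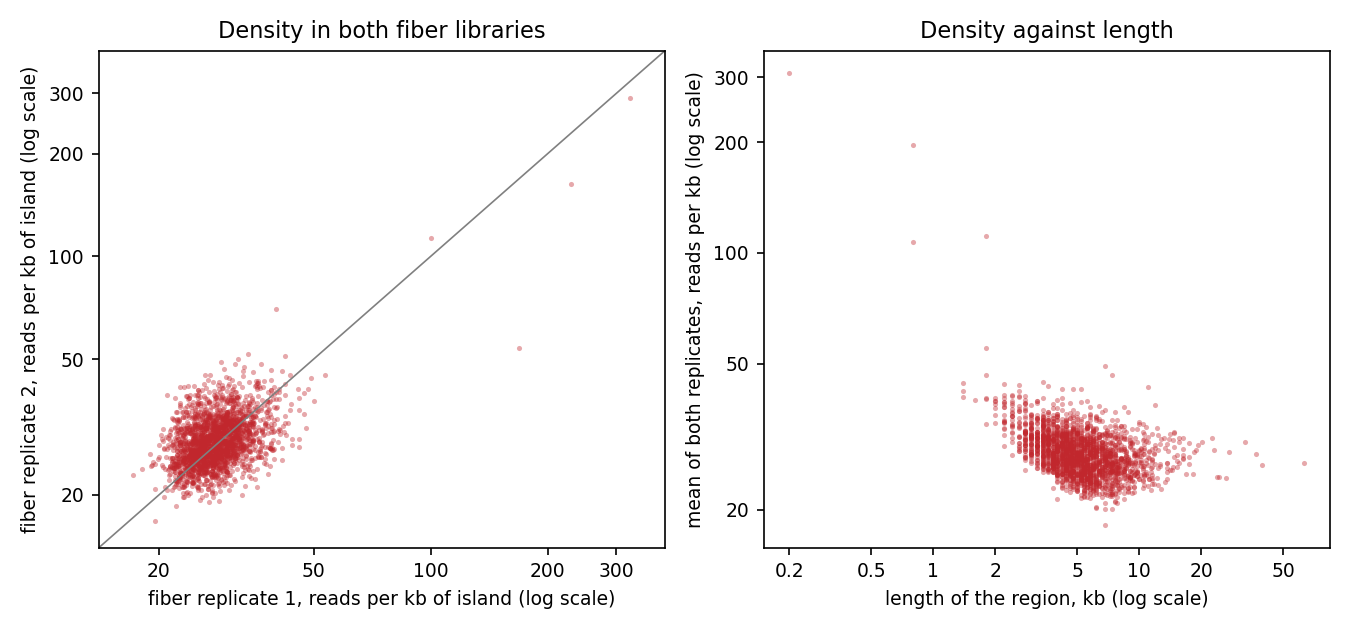
Density of the 2226 fiber-only regions outside genes, in reads per kb of island on log axes, in fiber replicate 1 against fiber replicate 2 (left, grey line at equality) and as the mean of both replicates against the length of the region in kb (right). Most points lie between 20 and 50 reads per kb in both libraries, and 3 short regions reach 100 reads per kb or more in both.

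Fiber-only regions inside protein-coding genes were longer, with a median of 6000 bp and quartiles of 4600 and 8600 bp, and slightly less dense. Their median density was 26.9 reads per kb in fiber replicate 1 and 27.5 in replicate 2. The ratio of the median outside genes to that inside genes was 1.03 in each replicate, 1.03 ± 0.000971 (SD, n = 2). Both values come from the same regions, chosen by calls in both libraries, so that this SD does not give the uncertainty of the ratio. Density was not compared between regions of the same length. When 10389 islands, those of highest density, were taken from every library, the ratio was 1.005. Regions over 20 kb made up 0.494% of the fiber-only regions outside genes and 2.39% of those inside genes.

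No test was run on these values. The regions were chosen by the calls of the same 4 libraries, 2 libraries per compartment allow no p below 0.333 in an exact permutation test, and regions are not replicates of a compartment. The deposited lists held 27059 and 35940 islands in the fiber replicates and 10389 and 14434 in the epithelium replicates, and the reads in islands numbered 5041885, 5359085, 1331369 and 1430373 in that order. The total depth of the libraries is unknown, so that the lack of a called epithelium island and lower depth in epithelium cannot be told apart. With 10389 islands from every library, 502 fiber-only regions outside genes were left. The number was 5604 without fiber replicate 1 and 3324 without fiber replicate 2, where a single fiber library had to carry the island.

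Some regions missed the rule narrowly. Outside genes, 3610 regions had an island in 1 fiber replicate only and none in epithelium, 775 of them in replicate 1 and 2835 in replicate 2. Their median length was 3200 bp and their median densities were 24.5 and 26.3 reads per kb. A further 1051 regions outside genes had islands in both fiber replicates and in epithelium. The epithelium islands covered a median of 56.4% of their length and under 10% in 3 of them, the lowest share being 4.76%. Among fiber-only regions that were left out because they overlapped a gene, 16 did so by at most 200 bp, with 8 bp at Vegfa (chr17:46011401-46017000) as the smallest overlap, and 23 of those kept lay within 200 bp of a gene.

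Most fiber-only regions outside genes lay at some distance from the nearest protein-coding gene. The median distance was 28076 bp, with quartiles of 9044 and 87176 bp and a range from 4 bp, at Mkrn1 (chr6:39392801-39397800), to 2140129 bp, upstream of Cdh20. A total of 97 regions lay within 1 kb of a gene, 275 at 1 to 5 kb, 565 at 5 to 20 kb, 792 at 20 to 100 kb, 463 at 100 to 500 kb and 34 farther away. They were divided evenly between the sides of the nearest gene, with 1111 upstream of its start and 1115 downstream of its end. Within 5 kb the downstream side held more, 214 against 158, and from 5 to 20 kb the upstream side did, 319 against 246. Among other regions outside genes, the downstream side within 5 kb also held more in regions of 1 fiber replicate, 343 against 259. It did so in regions with epithelium and fiber islands, 171 against 118, and epithelium-only regions were near even, 143 against 140. Over the 6 ranges of distance, the density of the fiber-only regions varied little. Medians lay between 27.1 and 28.2 reads per kb in fiber replicate 1 and between 27.5 and 29.0 in replicate 2.

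**Figure D2:**
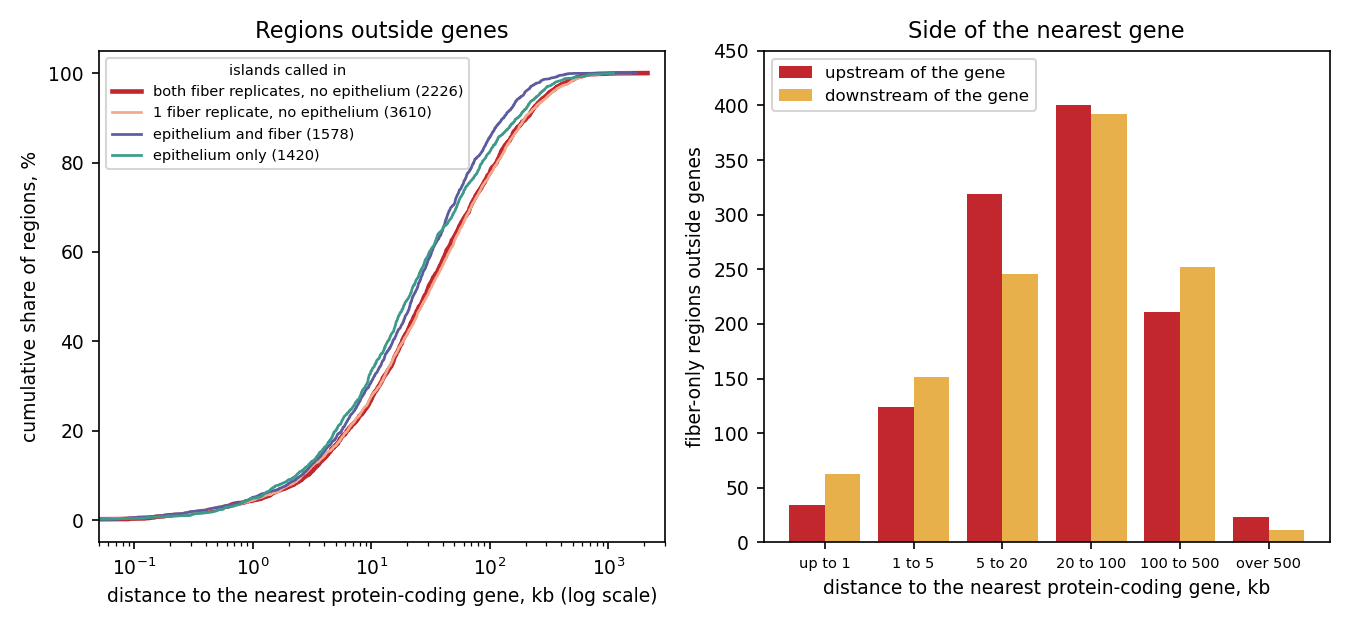
Distance in kb to the nearest protein-coding gene (log axis) as the cumulative share of regions outside genes in 4 classes (left), and the number of fiber-only regions upstream and downstream of that gene by distance (right). The curve of the 2226 fiber-only regions found in both replicates runs with that of regions found in 1 fiber replicate, and the curves of regions with epithelium islands lie to the left, at shorter distances.

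Regions outside genes that had both epithelium and fiber islands lay closer to genes, with a median of 22423.5 bp and 14.4% of them over 100 kb away, beside 22.3% of the fiber-only regions. For regions with an island in 1 fiber replicate the median was 29280 bp, and for those with epithelium islands only it was 20863.5 bp. The median of the fiber-only regions was 26459.5 bp without fiber replicate 1, 24648.5 bp without fiber replicate 2, 31111 bp with equal numbers of islands and 11217 bp where regions were assigned by their midpoint, which lets them reach into genes. The medians of the other classes were not recomputed under these settings. The length of a merged region differs between these classes, with medians of 5000 bp in fiber-only regions, 3200 bp in those of 1 fiber replicate, 6200 bp in shared and 3000 bp in epithelium-only regions.

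The genes beside these regions often carried H3.3 themselves in fibers. The 2226 regions had 1603 different nearest protein-coding genes, which is 7.70% of the 20807 protein-coding genes on chromosomes 1 to 19. Of these 1603 genes, 1107 (69.1%) had an island of both fiber replicates in the gene body, beside 10538 of all genes (50.6%), and 310 (19.3%) had no fiber island, beside 37.6% of all genes. The nearest genes were longer, with a median of 36.5 kb against 17.6 kb for all genes, and a longer body offers more room for an island. An epithelium island was present in the body of 737 of the 1107 genes and absent from 370. Over regions, the share with such a nearest gene was 71.2%, beside 75.4% of shared regions, 68.4% of regions of 1 fiber replicate and 66.4% of epithelium-only regions outside genes. Among the fiber-only regions it was 75.3% within 1 kb of the gene, 66.3% at 100 to 500 kb and 17 of 34 beyond 500 kb.

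Most of these genes, 1247, were nearest to a single fiber-only region, and 34 genes were nearest to 5 or more, which accounted for 218 regions. Groups of regions separated by at most 50 kb were seen as well, with 22 groups of 5 or more that held 147 regions, whereas 1383 regions (62.1%) had no other within that distance. The 10 genes with the most regions were Ndufaf2, Nedd1, Maf, Sall3, Dynlrb2, Nphp4, Tex36, Tpra1, A230072I06Rik and Cadm1, with 16, 13, 10, 9, 8, 8, 7, 7, 6 and 6 regions. The last 2 of these tied with 8 further genes.

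The largest group lay over the gene of a long non-coding RNA. Between positions 92058201 and 92377600 of chromosome 10, 13 regions covered 82.8% of 319 kb, with densities between 24.0 and 30.8 reads per kb in fiber replicate 1 and between 24.7 and 32.5 in replicate 2. Here lie Rmst, a long non-coding RNA gene known from neural development, where its RNA binds the transcription factor Sox2, and Gm20757, a gene of a long intergenic RNA just upstream of it on the same strand. Fiber-only regions covered 69.0% of the 94.1 kb of Rmst in 5 pieces and 87.4% of the 204 kb of Gm20757 in 9 pieces, and both starts lay in a region. The longest of all 2226 regions, chr10:92196201-92259400, lies within Gm20757 and held 1535 reads in fiber replicate 1 (26.7 reads per kb) and 1453 in replicate 2 (26.9 reads per kb). The nearest protein-coding gene, Nedd1, which encodes a centrosomal protein that recruits gamma-tubulin, ends 307146 bp away from the closest and 600146 bp from the farthest of them.

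**Figure D3:**
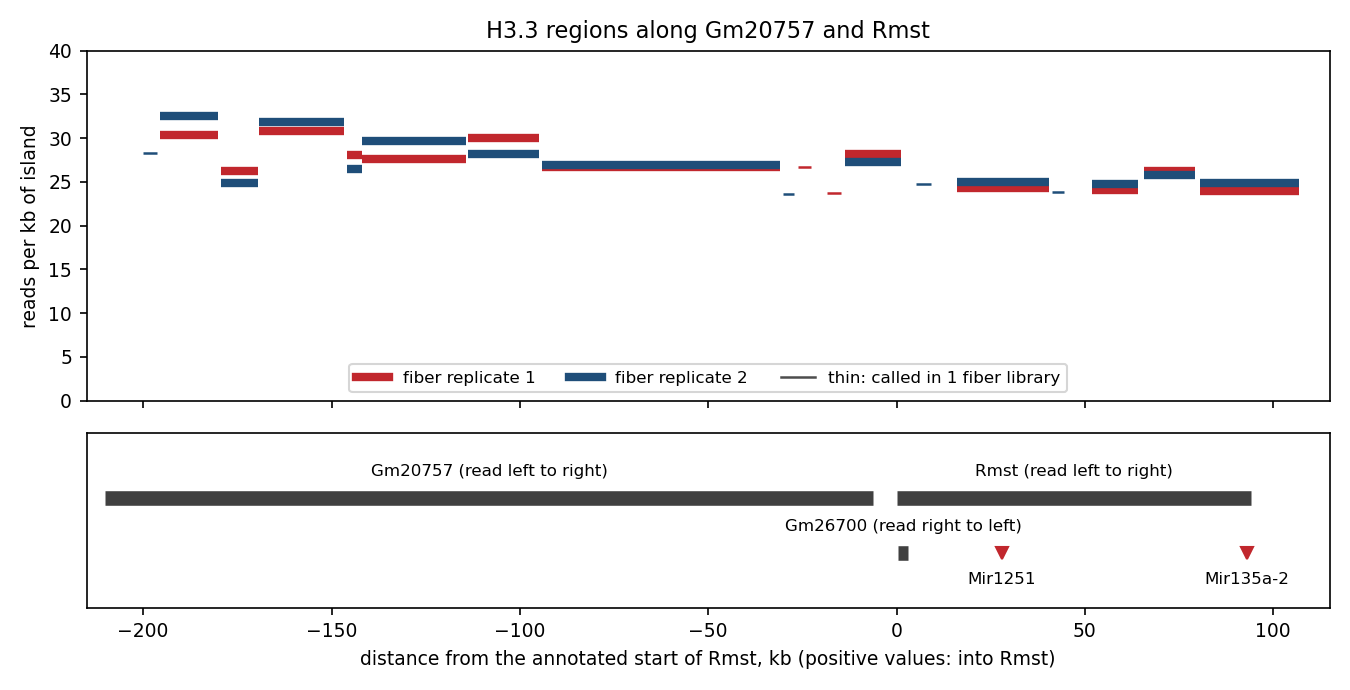
Fiber-only regions along Gm20757 and Rmst, plotted as reads per kb of island in fiber replicates 1 and 2 (thick lines; thin lines are regions called in 1 fiber library) against the distance from the start of Rmst in kb. The thick lines lie between 24.0 and 32.5 reads per kb in both libraries and cover most of both genes, including Mir1251 and Mir135a-2. The region chr10:92366001-92377600, which holds the start of Gm20757, is not drawn.

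In these regions lie 2 microRNA genes. Mir135a-2 was in the region chr10:92058201-92084600 with 24.0 reads per kb in fiber replicate 1 and 24.9 in replicate 2, and Mir1251 in chr10:92124801-92149200 with 24.3 and 25 reads per kb. The 2 replicates differed by less than 1 read per kb at either gene, in regions that had to be called in both libraries. The seeds of miR-135a-5p and miR-1251-5p printed above differ from each other.

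The gene with the most regions, Ndufaf2, an assembly factor of respiratory complex I, depends in part on the annotation used. Of its 16 regions, 9 overlap Zswim6, a zinc finger gene that GENCODE release M21 lists as a processed transcript and RefSeq as protein-coding, and they covered 72.5% of its 165 kb. In all, 96 of the 2226 regions (4.31%) overlapped a protein-coding gene of RefSeq, most often Zswim6 with 9, Samd5 with 5 and Tln2 with 4. With RefSeq genes added, an alternative chosen after the data were seen, there were 2130 fiber-only regions outside genes with a median distance of 28822 bp.

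Non-coding genes of GENCODE were overlapped by 597 fiber-only regions (26.8%), and 258 regions held the start of such a gene. Genes of long intergenic RNAs were met most often, in 370 regions, followed by antisense genes in 65, processed transcripts in 61 and processed pseudogenes in 52. By bases, 20.5% of the sequence of the fiber-only regions lay in non-coding genes, beside 12.0% of all sequence outside protein-coding genes on these chromosomes. That share was 16.5% in regions of 1 fiber replicate, 20.8% in shared regions and 20.1% in epithelium-only regions, so that the fiber-only regions lay within the range of the other H3.3 regions outside genes. Among regions of 4000 to 6600 bp, a non-coding gene was overlapped by 307 of 1181 fiber-only regions, 29.3% of shared regions and 28.3% of epithelium-only regions. Fiber-only regions with a non-coding gene had median densities of 27.7 and 28.3 reads per kb in replicates 1 and 2, and those without had 27.9 and 28.5 reads per kb.

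The non-coding genes with the most fiber-only regions were Gm20757 and Zswim6 with 9 each, 4933427D06Rik, next to Tpra1, with 7, Sox2ot with 6 and Rmst with 5. Among genes other than microRNAs, the 10 with the densest region were 2900005J15Rik, Gm12784, Serpina3h, Gm27164, Gm36283, Gm1976, Gm26734, Gm37194, Gm33926 and D630024D03Rik, with means of both replicates from 42.7 down to 38.3 reads per kb. Serpina3h is listed as a transcribed pseudogene of a protease inhibitor family with close copies, where reads can be divided between copies.

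MicroRNA genes overlapped 17 of the fiber-only regions, with 23 of the 829 annotated microRNA genes that lie outside protein-coding genes. Shared regions outside genes, which were fewer, held 32. The miR-17 cluster, known for promoting cell growth and survival, lay in 1 region together with the whole of its host gene Mir17hg, chr14:115042201-115051800. This region had 203 reads in fiber replicate 1 (26 reads per kb) and 242 in replicate 2 (25.2 reads per kb), and its nearest protein-coding gene was Gpc5, 40415 bp away. None of its stretches of 75 nt occurs elsewhere in the genome. The 6 microRNA genes of the cluster are Mir17, Mir18, Mir19a, Mir20a, Mir19b-1 and Mir92-1, and they share this single value.

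Mir31 lay in the second longest region, chr4:88905801-88945400, of 39600 bp, together with all of the long intergenic RNA gene AL805899.1. It held 977 reads in fiber replicate 1 (25.2 reads per kb) and 955 in replicate 2 (27.8 reads per kb). Ifne, an interferon gene, was nearest, at 25600 bp. Mir124a-3, one of the genes for the neuronal microRNA miR-124, was in chr2:180890001-180895600 with 25.7 and 23.1 reads per kb, and Mir148a in chr6:51269801-51273800 with 28.9 and 31.2 reads per kb. These values lay within the quartiles of all fiber-only regions, except that of replicate 2 at Mir124a-3, which lay below them. Regions with the remaining microRNA genes, namely Mir6347, Gm23681, Gm47299, Gm47305, Mir1983, Gm44456, Gm22118, Gm23882, Mir1897, Mir6414, Mir6417 and Gm26474, had between 21.4 and 31.8 reads per kb in fiber replicate 1 and between 24.1 and 34.6 in replicate 2.

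Genes for tRNA, transcribed by RNA polymerase III, formed another group. In RefSeq, 85 of 358 tRNA genes that lie outside protein-coding genes were in 37 fiber-only regions, beside 59 in 23 shared regions, 21 in 16 regions of 1 fiber replicate and none in the 1420 epithelium-only regions. Fiber-only regions held a tRNA gene in 1.66% of cases and shared regions in 1.46%. On chromosome 13, 24 of these regions with 69 tRNA genes lay between positions 21165201 and 23511000, where the Hist1 cluster of replication-dependent histone genes is found. The region with the most tRNA genes, 8, was chr13:21906401-21925800, with 30.9 and 29.1 reads per kb, and the densest was chr13:23407201-23414000, beside Abt1, with 53.3 and 44.9 reads per kb. The median density over the 37 regions was 28.1 reads per kb in fiber replicate 1 and 29.0 in replicate 2, close to that of all fiber-only regions. Of 54 Hist1 genes on chromosome 13, 48 had a fiber island of both replicates in the gene itself, beside 50.6% of all protein-coding genes. An epithelium island was present in 45 of the 54, beside 7978 of all 20807 genes. Nearest to a fiber-only region were 3 of the 54, beside 7.70% of all genes. A median of 0.604% of the stretches of 75 nt in the regions with tRNA genes occur more than once in the genome.

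By chromosome, the number of fiber-only regions per Mb outside genes ranged from 0.954 on chromosome 3 to 2.19 on chromosome 11, with 1.57 over all. Chromosome 13 had the largest share of its fiber-only regions outside genes, 27.1%, and chromosome 19 the smallest, 15.2%. The 16 regions of Ndufaf2 and the 24 with tRNA genes lie on chromosome 13.

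Several genes of transcription factors that act in the lens had a series of fiber-only regions at a distance, while the gene itself carried H3.3 in both compartments. Maf, the factor that activates crystallin genes in fibers, was nearest to 10 regions, of which 8 lay downstream at 31342 to 154742 bp and 2 upstream at 315407 and 332207 bp. They held between 23.0 and 30.0 reads per kb in fiber replicate 1 and between 21.6 and 34.7 in replicate 2. The region closest to Maf, chr8:115646801-115651600, had 27.8 and 31.7 reads per kb. The body of Maf itself had islands in both fiber libraries and in epithelium.

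Sox2, a factor of lens induction and of stem cells, lies within the transcription unit of the long non-coding RNA Sox2ot. Of 5 fiber-only regions nearest to it, 4 lay upstream at 10405 to 87205 bp, and they included chr3:34583601-34620600 of 37000 bp, the third longest of all. This region held 980 reads in fiber replicate 1 (29.5 reads per kb) and 954 in replicate 2 (27.3 reads per kb). Its neighbour, chr3:34621601-34640000, with Mir1897, had 28.9 and 28.6 reads per kb. All 5 regions overlapped Sox2ot, which they and 1 further region covered to 13.8% of its 578 kb.

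Prox1, a homeobox factor needed for the elongation of fibers, was nearest to 2 regions, both upstream. The region chr1:190193401-190226000, 32600 bp long and 22687 bp from the gene, overlapped the antisense gene Prox1os and held 962 reads in fiber replicate 1 (29.5 reads per kb) and 815 in replicate 2 (31.8 reads per kb). The other, at 157087 bp, had 25.5 and 27.3 reads per kb. Within 300 kb of the start of Prox1, 4 fiber-only regions of both replicates lay beside 9 shared, 3 epithelium-only and 10 regions of 1 fiber replicate.

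**Figure D4:**
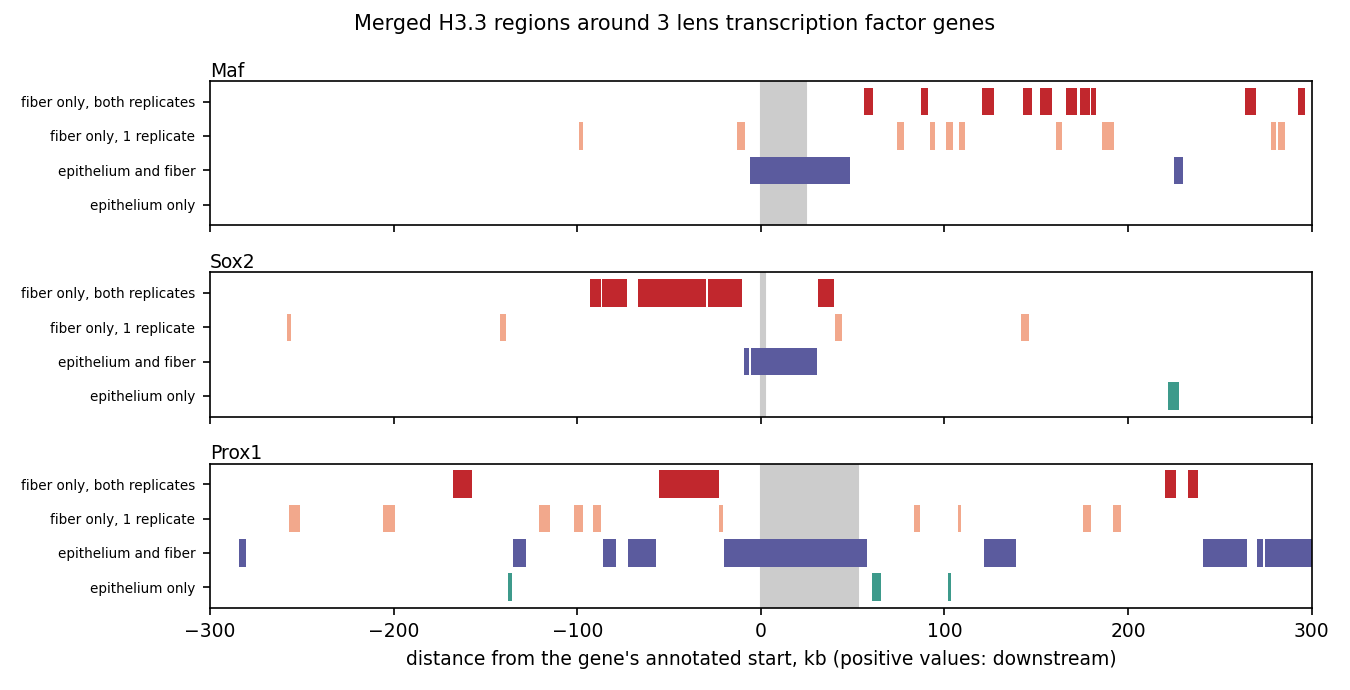
Merged H3.3 regions within 300 kb of the starts of Maf, Sox2 and Prox1 (grey, gene body), by class, against distance from the start in kb. Fiber-only regions of both replicates number 10, 5 and 4, including some that are nearest to another gene, and the region over each gene body has islands in epithelium and fiber. In the same windows, regions of 1 fiber replicate number 10, 4 and 10, shared regions 2, 2 and 9, and epithelium-only regions 0, 1 and 3.

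In the list of 32 genes of transcription factors of the lens, 13 were nearest to at least 1 fiber-only region outside genes (40.6%), beside 7.70% of all protein-coding genes. Others were Rarb and Tfap2a with 2 regions each and Six3, Sox1, Gata3, Meis1, Msx1, Tead1 and Zeb2 with 1 each. Both regions of Rarb, a retinoic acid receptor gene, lie within its longer RefSeq gene. Six3, which acts in lens and forebrain formation, had a region of 2600 bp at 27008 bp upstream with 36.4 and 26.7 reads per kb. Sox1, an activator of gamma-crystallin genes, had one of 5800 bp at 81875 bp downstream with 28.6 and 24.4 reads per kb. The region 69818 bp upstream of Msx1, a homeobox gene, was 14000 bp long and differed between replicates, with 23.8 and 38.4 reads per kb. Developmental regulators are often surrounded by long stretches without genes, so that the counts were also set beside the length of sequence to which each gene is nearest. The 34 regions of this list lay in 10.6 Mb, or 3.19 per Mb, beside 1.57 per Mb over all genes. Shared and epithelium-only regions were not set beside this list or the lists that follow. The values of these lists are thus not shown to be particular to fiber-only regions.

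Genes of signalling pathways of the lens numbered 31, of which 10 (32.3%) were nearest to a fiber-only region, with 3.86 regions per Mb. Bmp7, the receptor Fgfr2, the Notch target Hes1 and the FGF antagonist Spry2 had 2 regions each, and Fgfr1, the Notch ligand Jag1, Hey1, Ctnnb1, Spry1 and Pdgfra had 1 each. All 10 had islands of both fiber replicates in the gene body, as did 27 of the 31 genes of the list and 50.6% of all genes. Of 11 RNA-binding genes, 1 (9.09%, beside 7.70% of all genes) was nearest to fiber-only regions, Qk, which encodes the protein quaking. It had 6 regions from 4800 to 10200 bp long, 5 of them downstream. They ranged from 23.8 to 37.9 reads per kb in fiber replicate 1 and from 24.8 to 38.6 in replicate 2.

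**Figure D5:**
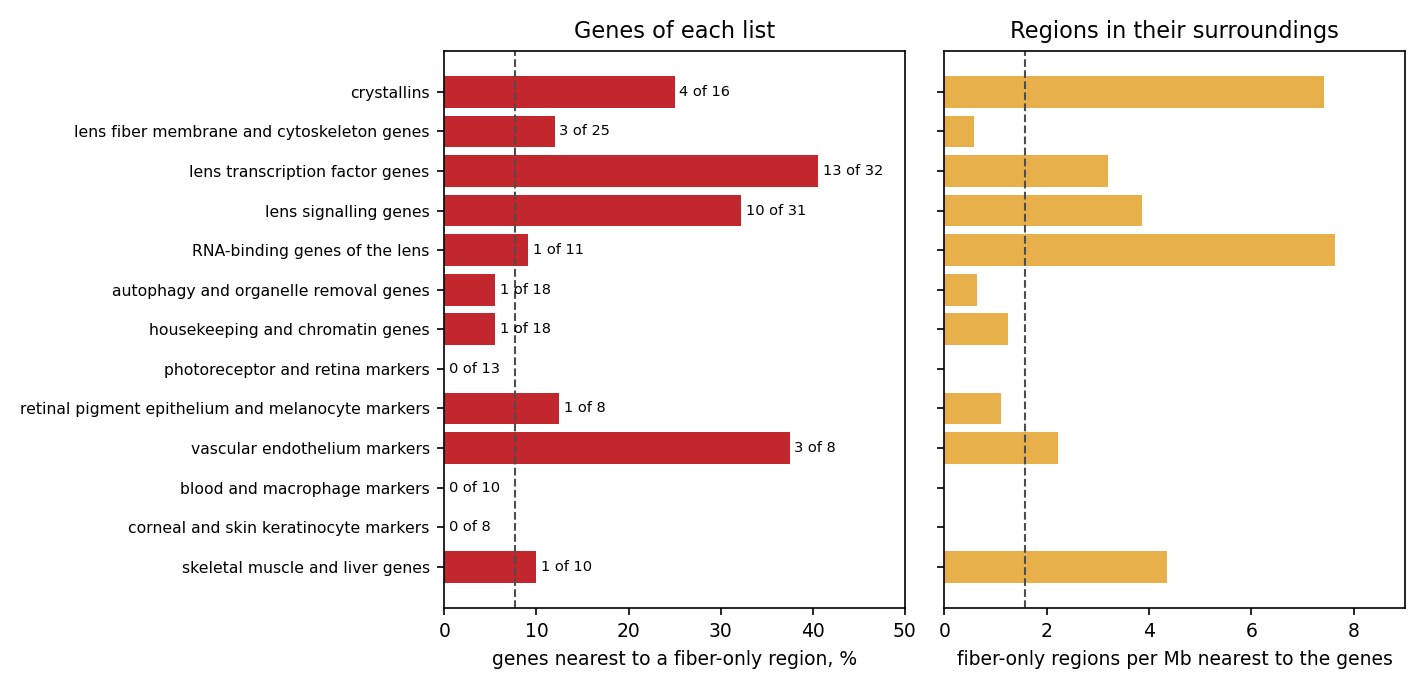
Share of the genes of 13 lists that are nearest to a fiber-only region outside genes (left, with counts), and number of such regions per Mb of the sequence to which the genes are nearest (right). Dashed lines mark all protein-coding genes, 7.70% and 1.57 per Mb. The lists of crystallins, lens transcription factors, signalling and endothelial genes lie above both lines. So do the RNA-binding list, through 1 of 11 genes (9.09%), and the muscle and liver list, through 1 of 10 genes (10%).

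Crystallins are the main soluble proteins of fibers. Of 16 crystallin genes, 4 (25%) were nearest to a fiber-only region outside genes, while all 16 had islands of both fiber replicates in the gene body. Cryba4 had 4 regions, all downstream at 90693 to 243093 bp, with 28 to 32.3 reads per kb in fiber replicate 1 and 24.6 to 28 in replicate 2. Cryaa had 1 region 20468 bp downstream (chr17:31702201-31708200) with 26.8 and 27.8 reads per kb. Crygs had 1 region of 9000 bp at 28203 bp downstream with 31.8 and 29.5 reads per kb, and Crygn 1 region at 18593 bp upstream with 23.8 and 23.1 reads per kb. Together the 7 regions lay in 0.943 Mb, or 7.42 per Mb, of which the surroundings of Cryba4 held 4.

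Among 25 genes of the fiber membrane and cytoskeleton, 3 were nearest to a fiber-only region (12.0%), with 0.582 regions per Mb. Caprin2, an RNA-binding protein on this list, had a region 1092 bp downstream with 30.7 and 29.9 reads per kb. Sptb, a spectrin, had a region 5254 bp upstream with 22.6 and 33.0 reads per kb. Gja1, a connexin, had 1 region 516288 bp away and no island of both fiber replicates in its body. The gene bodies of this list carried H3.3 in both fiber replicates in 21 of 25 cases. Of the autophagy and organelle removal genes, 1 of 18, Bnip3l, was nearest to 2 regions at 7639 and 24239 bp downstream, a share of 5.56%. Of 18 housekeeping and chromatin genes, 1 was nearest to such a region, H3f3a, which encodes H3.3 itself, with a region 6032 bp downstream at 33.0 and 46.0 reads per kb.

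The label of the fiber libraries was read against markers of neighbouring tissues. Islands of both fiber replicates were present in the bodies of 1 of 13 photoreceptor and retina genes, 2 of 8 of pigment epithelium and melanocytes, 2 of 8 of vascular endothelium, 2 of 10 of blood and macrophages, 1 of 8 of keratinocytes and 1 of 10 of muscle and liver, beside all 16 crystallins and 50.6% of all genes. Islands do not measure expression. No gene of the retina, blood or keratinocyte lists was nearest to a fiber-only region outside genes. The endothelial genes Pecam1, Cdh5 and Kdr were nearest to 1 region each, at 12217, 632025 and 130227 bp. They were 3 of 8 endothelial genes (37.5%), with 2.23 regions per Mb. That share lay between those of the crystallins (25%) and the lens transcription factors (40.6%). Mitf, a factor of pigment cells, was nearest to 2 regions (1 of 8 genes, 12.5%). Des, the muscle desmin gene, was nearest to 1 at 822 bp (1 of 10 genes, 10%). Whether other cells in the dissected lenses contributed to these regions was not tested.

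At the other end of the range, 3 fiber-only regions outside genes had at least 100 reads per kb in both fiber replicates, and no fiber-only region inside genes reached 50 in both. The densest was the shortest as well as the farthest from a gene, chr1:102628201-102628400, whose sequence is printed above. It is 200 bp long, a single window of the island caller, with 65 reads in fiber replicate 1 and 58 in replicate 2, which is 325 and 290 reads per kb. The second, chr19:61199201-61200000 near Gm6020, had 230 and 162.5 reads per kb, and the third, chr1:195241401-195242200 near Cr2, had 100 and 113 reads per kb. Every stretch of 75 nt in these 3 regions is found once in the assembled genome. The next, chr16:17221801-17223600 near Rimbp3, had 168 reads per kb in replicate 1 and 53.9 in replicate 2, from similar numbers of reads, 101 and 97, in islands of 600 and 1800 bp. The other regions among the 10 densest were nearest to Olfm1, Abt1, Vmn1r3, Tmem108, Igfbp7 and Rbp7, with means between 44.3 and 55.0 reads per kb.

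The 5 farthest regions were nearest to Cdh20, Flrt2, Slc10a2, Mat2b and Pou3f3, at 802368 to 2140129 bp. Apart from the first, they were 4000 to 6200 bp long and had 22.6 to 29.4 reads per kb in fiber replicate 1 and 27.9 to 37.3 in replicate 2. These densities lay within the range of all fiber-only regions outside genes.

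In base composition, the fiber-only regions outside genes were close to those inside genes, with a median GC content of 46.7% against 46.2%. The order of these medians turned where only islands of median density or more were kept and where 10389 islands per library were kept, with ratios of 0.985 and 0.977. Shared and epithelium-only regions outside genes were richer in GC, at 49.2% and 48.9%. CpG were less frequent than inside genes, with a median ratio of observed to expected CpG of 0.205 against 0.240, and a window of 200 bp with at least 50% GC and a ratio of at least 0.6 was present in 1031 of the 2226 regions (46.3%) against 62.9% inside genes. Among regions of 4000 to 6600 bp, the same share was 46.0% outside and 59.7% inside genes, and it was 58.7% in shared and 45.5% in epithelium-only regions outside genes. Fiber-only regions with such a window were longer, with a median of 5600 bp against 4600 bp, which leaves more room for a window and for an overlap. They were nearer to genes, with a median of 24496 bp against 31213 bp, and overlapped a non-coding gene more often, in 30.9% against 23.3%.

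Most bases under these regions were not marked as repeats. The share of bases marked as repeats in the assembly had a median of 20.2%, against 18.8% in fiber-only regions inside genes. Outside genes it was similar in the other classes, at 18.9% in regions of 1 fiber replicate, 20.1% in shared and 19.5% in epithelium-only regions. Stretches of 75 nt, the read length, that occur more than once made up a median of 0.0316% of a region, and at least 50% in 14 of the 2226 regions. Copies of a repeat that are alike over a whole read cannot be told apart by mapping, so that such sequence is under-represented or uncertain in the lists, and the libraries were mapped to a genome of another strain than CD-1.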

How the data were processed

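H3.3 ChIP-seq islands of 2 fiber and 2 epithelium libraries were used. Per the Methods and the labels, single-end 75-nt reads were mapped by the authors with BWA to mm10 (GRCm38), and SICER then called islands library by library in windows of 200 bp. Use of the input in calling is not given in the sources used here. The deposited lists give positions and an unnormalized read count per island. Counts were divided by island length within a library and not scaled between libraries. Islands sharing 1 bp or more were joined and compared with gene bodies of GENCODE (release M21). Distances run from region edge to gene edge, and positions count from 1. Joining, the 2226 regions and their distances were identical with bedtools 2.31.1, and 3000 planted regions received their class. Python 3.11.15, numpy 2.4.6, numba 0.67.0 and matplotlib 3.10.9 were used. RefSeq gave tRNA genes and sequences. The regions and gene lists were chosen with earlier results of these data known.

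Genes were named by rule: those nearest to the 10 densest, 10 longest and 5 farthest regions, the 10 genes nearest to the most regions, every list gene nearest to a region, every microRNA gene overlapped, and the 10 other non-coding genes with the densest region. Other genes, such as Rmst, Gm20757, Sox2ot and Zswim6, were named after their values were seen. A gene of the transcription factor list, counted there, and a start window are not reported here.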

Additional observations from a re-analysis of the deposited data

How the results depend on the processing

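The number of fiber-only regions outside genes, 2226, depended on the libraries and islands kept. It was 1053 where islands below the median density of the library were dropped and 502 where every library gave 10389 islands. Leaving out 1 library gave 2490 to 5604 regions, the highest without fiber replicate 1, and a share of fiber-only regions outside genes of 18.9% to 23.3%. It gave median lengths of 3400 to 5200 bp, density ratios to regions inside genes of 1.02 to 1.03 and median distances of 24648.5 to 27529.5 bp. It gave 17.2% to 19.7% of regions within 5 kb, 20.2% to 22.0% over 100 kb, 23.3% to 27.7% with a non-coding gene, 71% to 73.3% with an island of both fiber replicates in the nearest gene, and GC ratios of 1.004 to 1.011.

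Under these 2 settings, in this order, the median length was 4400 and 4000 bp, the density ratio 1.01 and 1.005, the GC ratio 0.985 and 0.977, the median distance 30177 and 31111 bp, and the share within 5 kb 15.4% and 15.5%. The former left 20.1% over 100 kb, and the latter put 24.5% of fiber-only regions outside genes. With epithelium counted where its islands cover at least 50% of a region, that share was 17.7%, the density ratio 1.02 and the GC ratio 1.002. Widening genes by 5 kb gave a share of 16.8%, a ratio of 1.04, a median distance of 40427 bp, 26.8% over 100 kb and, by construction, 0 within 5 kb. Gene bodies of every biotype gave 14.7%, 26232 bp, 17.2% within 5 kb and, by construction, 0 with a non-coding gene. Assignment by midpoint, which lets regions reach into genes, gave 28.5%, 11217 bp, 41.1% within 5 kb, 15.8% over 100 kb, 78.2% with a marked nearest gene and a GC ratio of 1.02. Merging within 1 kb gave 30204 bp, 15.03% within 5 kb and 69.5% with a marked nearest gene. Distance to the nearest start gave 46776.5 bp, 8.13%, 29.6% and 68.7% for the median, within 5 kb, over 100 kb and a marked nearest gene. Mean density gave a ratio of 1.04. Adding RefSeq genes, chosen after seeing the data, gave 15.9% within 5 kb. The causes were not tested, and other values moved by less than the SD between the values without fiber replicate 1 and without fiber replicate 2 (0.00258 for the density ratio) or, for the number, stayed within 1.5 times. The total depth of the libraries is unknown and limits what the lack of an island can show. No paired analysis was made, because no test was run.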
